A study of Arabidopsis thaliana with 6 samples.

Results

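The genes described here had reads in control roots of Arabidopsis thaliana and were listed at 0 after auxin treatment. The genes were chosen by both of these means in the deposited table, 0 after IAA and at least 4 in control, among nuclear genes only, and 7 gene IDs named in the rule were left out. Of 20215 nuclear genes in the table, 91 met the rule. With the 7 left-out IDs, 98 of 14600 nuclear genes with a control mean of at least 4 were listed at 0 after IAA, which is 0.671%. The rule itself used both means, so these values describe the genes and test nothing.

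Wild type seedlings of the Col-0 strain were used 3 days after germination. They were kept for 6 h in liquid 1/2 MS medium, a standard plant salt medium, either without addition (control) or with IAA, the natural auxin indole-3-acetic acid, added at 1 µM. The labels give 3 libraries in each group, each from about 100 roots, sequenced on the SOLiD platform after depletion of ribosomal RNA. The table holds 1 mean per group and no value per library. Each value is therefore the authors' mean in normalized reads, without an SD. The authors' own p-values in the table were not used, and no test could be run from the means. In the study, transcripts whose fold change ran to zero or infinity were filtered out, which is the case for all 91 genes.

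Auxin sets how root cells divide, elongate and differentiate. A root epidermal cell that becomes a hair cell switches on a set of genes for tip growth, among them genes of the cell wall, the actin skeleton and secretion, and auxin is known to promote root hair growth. Genes of photosystem I, the thylakoid complex that passes light-driven electrons to ferredoxin, are known from green tissue and are held low in roots.

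Upstream sequence is shown first for the genes that carry the root hair element, a promoter sequence known from genes of Arabidopsis hair cells. This motif was searched after the list of genes had been read. It stood in 5 of the 91 promoters (5.49%), taken as 250 bases before to 50 bases after the annotated start on both strands, and in 0.842% of 27443 promoters in the genome. All 5 matches lay before the start. The 250 bases before the start are given from the TAIR10.1 genome of RefSeq, 5′ to 3′ on the strand of the gene, with the match in capitals.
MES15 (AT1G69240), chr1:26030313-26030562, minus strand: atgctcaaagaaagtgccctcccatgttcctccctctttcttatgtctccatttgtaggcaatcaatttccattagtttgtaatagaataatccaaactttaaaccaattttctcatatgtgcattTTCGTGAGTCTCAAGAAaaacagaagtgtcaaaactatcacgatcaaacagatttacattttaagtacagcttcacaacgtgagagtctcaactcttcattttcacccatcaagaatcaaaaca
G3Pp2 (AT4G25220), chr4:12920492-12920741, plus strand: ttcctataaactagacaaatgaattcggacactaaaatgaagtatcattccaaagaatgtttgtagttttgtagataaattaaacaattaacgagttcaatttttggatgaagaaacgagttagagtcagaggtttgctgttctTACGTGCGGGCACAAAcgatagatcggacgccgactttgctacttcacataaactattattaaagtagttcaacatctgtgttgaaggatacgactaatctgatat
FUT10 (AT2G15350), chr2:6689820-6690069, minus strand: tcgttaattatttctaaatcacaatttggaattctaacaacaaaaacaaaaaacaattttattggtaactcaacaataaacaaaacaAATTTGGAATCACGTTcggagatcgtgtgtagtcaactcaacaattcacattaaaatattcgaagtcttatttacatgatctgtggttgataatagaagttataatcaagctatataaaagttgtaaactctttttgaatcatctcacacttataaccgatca
PPa3 (AT2G46860), chr2:19253420-19253669, plus strand: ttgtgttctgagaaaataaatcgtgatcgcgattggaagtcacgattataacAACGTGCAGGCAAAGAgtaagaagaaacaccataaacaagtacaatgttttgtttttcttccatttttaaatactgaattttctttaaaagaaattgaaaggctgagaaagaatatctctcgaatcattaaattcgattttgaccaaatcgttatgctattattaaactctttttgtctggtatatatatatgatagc
AT3G12540, chr3:3974552-3974801, plus strand: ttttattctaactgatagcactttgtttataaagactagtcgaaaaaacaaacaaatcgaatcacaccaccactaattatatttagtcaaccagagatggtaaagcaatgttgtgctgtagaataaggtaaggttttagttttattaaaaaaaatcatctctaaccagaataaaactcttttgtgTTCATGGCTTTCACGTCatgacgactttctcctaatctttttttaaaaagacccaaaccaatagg

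In MES15, G3Pp2 and PPa3 the match was on the opposite strand, and in FUT10 and AT3G12540 on the given strand. MES15 and G3Pp2 are the genes of the list that carry a root hair specific (RHS) name, as RHS9 and RHS15. How the RHS names were given was not looked at, so name and element are not taken as independent of each other. The shorter word GCACG is part of some forms of the element and lay inside the match of PPa3 and G3Pp2. It stood in 19 of the 91 promoters (20.9%) and in 9.82% of all promoters. A match is a description of letters and no evidence of a bound site.

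A second set of sequences belongs to AT1G05650 and AT1G05660, a tandem pair of pectin lyase-like genes and 2 of the 3 genes with the highest control means. They lie on the same strand with 1891 bp between them and no coding gene in the gap. Their proteins are 89.1% identical over 100.0% of the length. The longest run of bases shared by both upstream regions is 17 bases long. Another shared run, cgatatcaaccatgtgt, has the same length, and only the run nearer the 5′ end is in capitals.
AT1G05650, chr1:1692180-1692429, minus strand: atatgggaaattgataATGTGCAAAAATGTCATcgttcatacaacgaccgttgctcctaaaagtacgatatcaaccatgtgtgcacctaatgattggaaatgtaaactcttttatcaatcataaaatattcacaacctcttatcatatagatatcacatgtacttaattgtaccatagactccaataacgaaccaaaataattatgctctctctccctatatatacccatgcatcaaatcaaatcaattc
AT1G05660, chr1:1696192-1696441, minus strand: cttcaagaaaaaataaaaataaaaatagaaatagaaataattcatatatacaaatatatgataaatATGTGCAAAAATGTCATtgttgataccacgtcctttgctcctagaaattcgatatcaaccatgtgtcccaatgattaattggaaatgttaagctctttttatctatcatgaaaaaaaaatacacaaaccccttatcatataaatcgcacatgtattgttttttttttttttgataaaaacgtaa

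Most of the 91 genes were low in control. The control means ran from 4.17 to 32.27 with a median of 6.07, and 33 genes lay under 5, 41 from 5 to 10 and 17 at 10 or over. These means are not divided by gene length, so their order is one of reads and not of transcript number. The plot of ranked control means shows the few genes at the top and the long row close to the threshold.

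**Figure D1:**
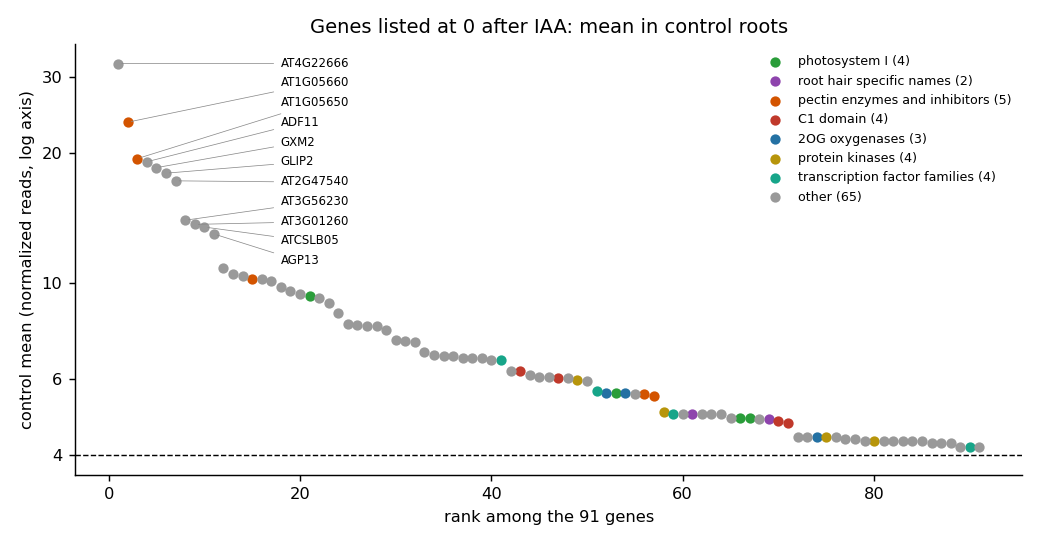
Control means of the 91 genes listed at 0 after IAA, in normalized reads on a log axis, by rank. Colours mark gene families, a gene with more than 1 family has 1 colour, and the dashed line is the threshold of 4. The 11 highest genes are named, and 17 genes lie at 10 or over.

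Just inside the threshold were AT1G72220, AT2G40200 and AT5G04000, each with a control mean of 4.17. Just outside it were AT2G41330 and LSF1 at 3.81, followed by AT1G19540, ABC4 and COL2 at 3.76. The threshold therefore cut through a continuous run of low values.

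The number of reads behind a mean was worked out from its decimals. Every one of 5425 control values up to 5 was, within 0.006, a sum of whole multiples of 0.5893 and 0.6343, and all 5436 IAA values in this range were sums of multiples of 0.3665 and 0.4256. By comparison, 11.0% of all 2-decimal numbers up to 5 lie as close to such a sum for control and 22.4% for IAA. Each step is taken as what 1 read is worth in 1 library. The labels give 3 libraries per group, while 2 steps per group were enough for all these values, and which of the libraries they belong to is not known. On this scale the summed means correspond to about 1449000 to 1560000 counted reads in control and 2053000 to 2384000 after IAA. The study reports a larger number of high-quality reads for each sample, and why fewer were counted was not tested.

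The lowest of the 91 genes rested on 7 reads in control. For 82 genes the mean had 1 solution in whole reads and for 9 it had several. None of the 82 had all its reads on 1 step, 12 had 1 read on the rarer step and 70 had at least 2 reads on each. Together they held 423 reads on the smaller and 465 on the larger step. So the control signal of these 82 genes was seen in both of the libraries that the steps stand for.

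**Figure D2:**
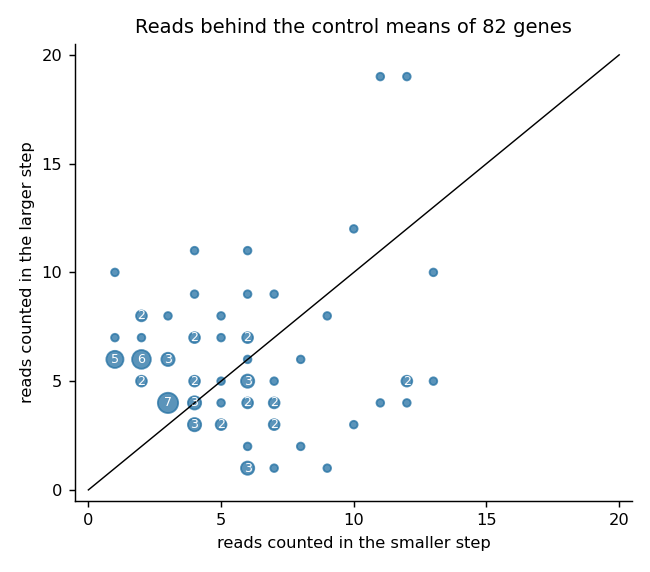
Reads behind the control means of the 82 genes with 1 solution, as whole reads on the smaller step (x axis) against the larger step (y axis). Point area and the number inside give the count of genes at that spot, the line marks equal reads, and no point lies on either axis.

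At the same normalized level, the lowest gene would have had about 10.5 reads after IAA and the highest 81.5. A listed 0 was read as an upper limit of 3 reads over the IAA libraries, each at the larger step. This gives bounds from at least 3.27-fold lower after IAA for the lowest genes to at least 25.3-fold lower for the highest, with a median bound of 4.75. The bounds cover the counting error of the 0 after IAA only. They take the control mean, which rests on as few as 7 reads, as exact and say nothing of the spread between roots. The rule chose the genes by both means, so the bounds describe the chosen genes and are no general lower limits.

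A gene listed at 0 in 1 group only was more often a gene with few reads. The share of nuclear genes at 0 after IAA was 3.39% at a control mean of 4 to 5 (33 of 973), 1.55% at 6 to 8 and 0.0644% at 20 to 40. With the groups exchanged, 121 of 14618 nuclear genes with an IAA mean of at least 4 were listed at 0 in control (0.828%). There the share was 5.26% at 4 to 5 and 0.0631% at 20 to 40. The IAA libraries were deeper, and an IAA mean of 4 already stands for at least 10 reads. Among genes with at least 7 reads in the other group, 98 were at 0 after IAA and 221 at 0 in control. These counts are not at the same level, because 7 reads stand for a lower normalized mean after IAA than in control. No share was worked out for them. At a mean of at least 4 in the other group the shares were 0.671% and 0.828%.

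**Figure D3:**
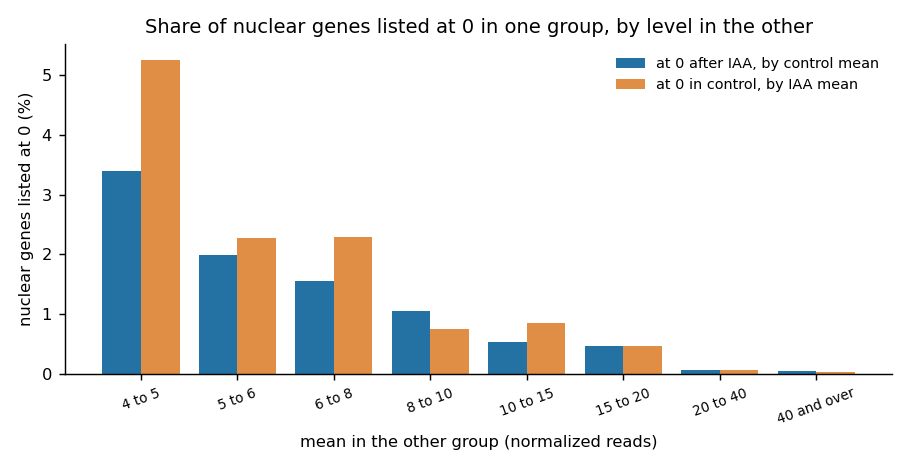
Share of nuclear genes (%) listed at 0 after IAA by control mean, and listed at 0 in control by IAA mean, in 8 classes of the other group's mean in normalized reads. Both shares are highest at 4 to 5 (3.39% and 5.26%) and under 0.1% from 20 on.

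Genes of the cell wall made up 14 of the 91. The tandem pectin lyase-like genes AT1G05660 and AT1G05650 had control means of 23.61 and 19.44, from 38 to 39 and 31 to 32 reads, and were at least 18.5-fold and 15.2-fold lower after IAA. The proteins of this family cut or modify pectin, the gel of the primary wall. Another 3 genes are annotated to the superfamily of invertase and pectin methylesterase inhibitors, AT1G23205 at 10.24, AT4G25250 at 5.53 and ATPMEPCRD at 5.48. The protein of ATPMEPCRD is longer, with 518 residues against 205 and 199, and most like the methylesterase PME61 (70.1% identity). The superfamily name therefore does not make it an inhibitor. Reads are given here and below for the smaller and then the larger step. Each of the 3 genes had reads on both control steps, 12 and 5 for AT1G23205, 4 and 5 for AT4G25250 and 5 and 4 for ATPMEPCRD.

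The other pectin genes of the table did not share one direction. Besides these 5, 80 genes named for pectin had a larger mean of at least 4, and 23 of them had a ratio of IAA to control (1 added to each mean) of 0.5 or less, 18 had a ratio of 2 or more and 39 lay between. Over all nuclear genes under the same filter, the 91 left out, 12.7% had a ratio of 0.5 or less and 15.0% a ratio of 2 or more. The next gene to AT4G25250, AT4G25260 of the same inhibitor family, lies 240 bp away and had means of 18.58 in control and 11.27 after IAA. AT1G23200, 4292 bp from AT1G23205, was listed at 0 in control and at 1.28 after IAA.

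GXM2, an enzyme that methylates glucuronic acid side chains of xylan, had a control mean of 18.53 from 11 and 19 reads and was at least 14.5-fold lower after IAA. Its nearest relative, GXMT1 (73.2% identity), was present in both groups at 37.75 and 19.87. ATCSLB05 and CSLB06 encode cellulose synthase-like proteins of the B group and lie 15906 bp apart on chromosome 4, with 2 coding genes between them. ATCSLB05 had a control mean of 13.5 (10 and 12 reads) and CSLB06 one of 4.85 (5 and 3 reads). CSLB03, 74.6% identical to ATCSLB05, had 8.88 in control and 0.43 after IAA, which is about 1 read. CSLB01 had 1.27 and 4.27, so the B group as a whole did not share 1 direction. The measured gene between ATCSLB05 and CSLB06, CYP702A2, was listed at 0 in control and at 0.73 after IAA.

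FUT10, of the fucosyltransferase family that includes the xyloglucan enzyme FUT1, had a control mean of 6.66 from 7 and 4 reads. Its closest relative FUT5 (87.6% identity) had 16.41 in control and 0.43 after IAA. AGP13, a short arabinogalactan protein of the cell surface with 59 residues, had a control mean of 13.01, and AGP14 (73.3% identity) had 37.93 and 5.6. Of 33 other arabinogalactan genes past the filter, 23 (69.7%) had a ratio of 0.5 or less and 4 (12.1%) a ratio of 2 or more. The Ole e 1 and extensin family gene AT2G47540 had 17.27, the beta-expansin EXPB1 4.26, the blue copper protein UCC3 6.8 and the chitinase family gene AT2G43600 4.26. EXPB3, the nearest relative of EXPB1 (72.3% identity), was higher after IAA, at 12.01 and 17.32.

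Of the 91 genes, 3 are tied to root hairs by name or by known expression. For ATCSLB05 and AT5G51310, described elsewhere here, the annotation gives mutants with shorter and with longer root hairs under phosphate deficiency. ADF11 encodes an actin depolymerizing factor of the subclass known from Arabidopsis hair cells. It had a control mean of 19.12 from 12 and 19 reads and was at least 15.0-fold lower after IAA. ADF8, 89.4% identical and of the same subclass, had 11.47 in control and 1.7 after IAA. The more widely used ADF1 to ADF4 had similar means in both groups, with ADF3 at 140.26 and 115.98 and ADF2 at 85.65 and 94.27. The other listed ADF genes were lower after IAA too, ADF6 with 28.64 and 13.89, ADF5 with 9.88 and 3.11 and ADF9 with 2.49 and 1.64.

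MES15, related to esterases that cleave hormone methyl esters but with no known activity of its own, had a control mean of 4.98 (2 and 6 reads), and G3Pp2, of the glycerol-3-phosphate permease family, had 4.85 (5 and 3 reads). Their nearest relatives were scarce too, MES13 with 1.77 and G3Pp3 with 0.59 in control, and both were listed at 0 after IAA. Of the 16 other genes with an RHS name or synonym and a larger mean of at least 4, 12 had a ratio of 0.5 or less, none a ratio of 2 or more and 4 lay between, with a median log2 ratio of -2.37. RHS19 had 69.15 and 5.56, RHS13 65.8 and 11.1, and RHS6 4.35 and 5.67. RHS8, 1 of the 7 IDs left out by the rule, is counted in the 16 and in the 12. It had 12.69 in control and 0 after IAA, so its direction was set by the same values as for the 91. This list of RHS names was made after the 91 genes had been read.

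The 5 fixed hair cell markers (RHD2, COBL9, EXPA7, EXPA18 and PRP3) summed to 218.84 in control and 31.56 after IAA, and none was at 0. In such bulk samples fewer cells of a type and less RNA per cell cannot be told apart. The markers of non-hair epidermis summed to 17.63 and 10.19, those of endodermis to 191.42 and 91.55, of xylem to 214.89 and 130.24 and of phloem to 112.21 and 55.29. Root cap markers were at 3.72 and 18.65 and those of the stem cell niche at 7.84 and 21.83. Markers within a type did not all move alike. In endodermis, CASP1 to CASP5 were lower after IAA, while SCR had 30.95 and 37.56 and MYB36 20.08 and 17.05. In non-hair epidermis, GL2 had 8.52 and 8.18 and WER 9.11 and 2.01. In root cap, SMB had 2.45 and 14.75, BRN1 0 and 2.8 and BRN2 1.27 and 1.1. The part of these shifts in the values of the hair genes was not tested.

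Near G3Pp2, further genes of the 91 lay on chromosome 4. QWRF7, of a family named for a microtubule-binding motif, was 4586 bp away on the opposite strand with a control mean of 4.35, and the inhibitor gene AT4G25250 was 11677 bp away on the same strand. Measured genes between them differed in direction. AT4G25210 had 40.97 and 64.48, and AT4G25240 20.57 and 126.56. AT4G25225, which lies 2 bp from G3Pp2, had 3.04 and 0, so it was also at 0 after IAA but under the threshold in control.

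Photosystem I gave 4 of the 91 genes. PSAL, PSAG and PSAH-1 are subunits of its core and LHCA2 is a protein of its light-harvesting antenna. PSAL had a control mean of 9.34 from 4 and 11 reads and was at least 7.32-fold lower after IAA. LHCA2 had 5.57 from 3 and 6 reads, and PSAG and PSAH-1 each had 4.89 from 4 and 4 reads. All of these genes thus had at least 3 reads on each control step.

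Other photosystem I genes were lower after IAA as well, though not at 0. Of 10 further core and antenna genes past the filter, 10 had a ratio of 0.5 or less. PSAK had 15.36 in control and 0.79 after IAA, PSAF 20.26 and 2.74, PSAE-2 8.47 and 0.43, and LHCA3 35.21 and 5.12. LHCA4 at 26.74 and 10.66 and PSAN at 25.29 and 9.2 kept the highest levels after IAA. PSAE-1 was listed at 0 after IAA too, with a control mean of 2.4 under the threshold. PSAH2, 91.7% identical to PSAH-1 in protein and the closest of the relatives of the 91, had 2.36 and 2.2. Reads that fit both copies were not counted, since the authors kept uniquely mapped reads, so the split between PSAH-1 and PSAH2 is uncertain.

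**Figure D4:**
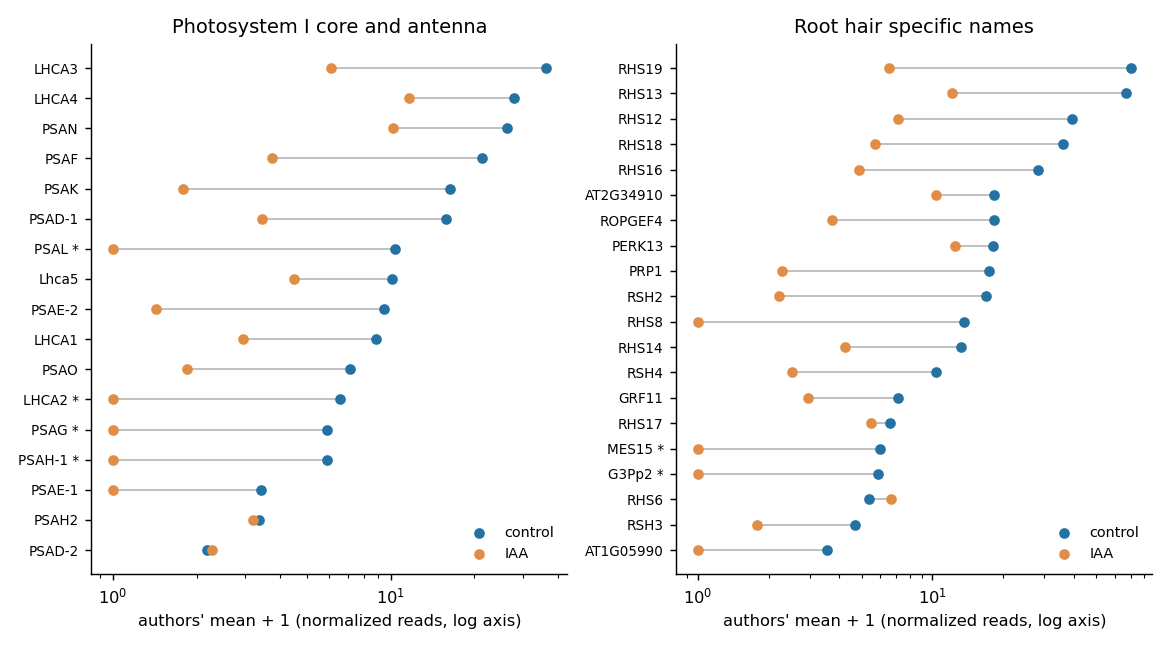
Control and IAA means (1 added, normalized reads, log axis) of photosystem I core and antenna genes and of genes with a root hair specific name, 1 line per gene. Stars mark genes of the 91, whose IAA point stands at a mean of 0. PSAH2 and PSAD-2 in the left panel and RHS6 and RHS17 in the right panel have nearly equal means.

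The wider list of genes named for photosystems, chlorophyll or Rubisco held 59 other genes past the filter. Of these, 46 (78.0%) had a ratio of 0.5 or less and none a ratio of 2 or more, with a median log2 ratio of -1.81, against 0.01 over all nuclear genes. Markers of shoot and photosynthesis (LHCB1.1, RBCS1A and RBCS3B) summed to 47.18 in control and 5.85 after IAA, with none at 0. The 88 plastid-encoded genes summed to 19404 and 20038. The part of green tissue carried over with the roots in these values was not tested.

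A pair of other genes of the list act in the thylakoid. NdhS, a subunit of the plastid NDH complex that receives electrons from ferredoxin, had a control mean of 4.98 (2 and 6 reads). PHT4;1, a phosphate transporter of the thylakoid membrane, had 5.53 (4 and 5 reads), while its relative ANTR2 had 14.68 and 13.04.

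Among 7 transport genes, BOR4, a boron exporter, had the highest control mean with 10.15. BOR5, 85.7% identical to it, was listed at 0 in control and at 3.65 after IAA. SLAH1, an anion channel homologue known from the root vasculature of Arabidopsis, had 8.07 from 4 and 9 reads. UMAMIT17, of a family of amino acid exporters, had 7.98, and its relative SIAR1 (74.8% identity) 24.97 and 5.3, while UMAMIT20, 3753 bp away, had 39.29 and 3.11. The uncharacterised amino acid transporter AT1G48640 had 4.89, whereas LHT1, 80.1% identical to it, was higher after IAA, at 19.17 and 65.5.

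TIP4;1, a water channel of the vacuole membrane, had a control mean of 6.71 from 6 and 5 reads. The other tonoplast channels kept reads after IAA, GAMMA-TIP with 1363.96 and 240.15 and TIP2;3 with 147.19 and 4.81. Of 24 other aquaporins past the filter, 17 (70.8%) had a ratio of 0.5 or less and 2 (8.33%) a ratio of 2 or more. CHX16, a cation exchanger, and MSL5, a mechanosensitive channel, had 4.98 each. MSL4 (65.5% identity to MSL5) was at 40.92 and 38.78.

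Hormone and peptide signals were represented by a cytokinin enzyme and a peptide. CYP735A1 hydroxylates the side chain of cytokinins to give the trans-zeatin forms. It had a control mean of 10.83 from 13 and 5 reads and was at least 8.48-fold lower after IAA. CYP735A2, its only close homologue (78.7% identity), had 8.7 and 0.73. CLE2, a small secreted signal peptide, had 9.83 from 7 and 9 reads. Within the CLE family, CLE1 had 3.67 and 0 and CLE6 4.31 and 1.1, whereas CLE44 was listed at 0 in control and at 43.94 after IAA.

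Of 4 protein kinases, AT5G07620 had a control mean of 5.98, AT1G29740 5.03, AT4G29450 4.4 and CIPK17, which acts with calcium sensors, 4.31. The leucine-rich repeat kinase AT4G29450 is 75.6% identical to RHS16, which had 27.14 and 3.84. Beside AT1G29740 lie AT1G29730 with 6.25 and 2.32 and RKF1 with 12.28 and 5.37. Kinases in general were balanced, with 81 of 572 others at a ratio of 0.5 or less and 77 at 2 or more. AT1G50930, annotated as a serine/threonine kinase, had 7.79, the phosphatase 2C gene AT3G05640 6.03, the calmodulin CAM8 4.31 and IQD12, of a family that binds calmodulin, 4.26.

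The 91 included 4 genes from the list of transcription factor families. MYB122, known as a regulator of indole glucosinolates, had a control mean of 5.62, bZIP58 4.98 and the bHLH gene AT2G40200 4.17. ZFN3 at 6.66 entered by its name, zinc finger nuclease. The other 622 genes of this list were spread in both directions, with 84 at a ratio of 0.5 or less and 106 at 2 or more. HIS1-3, a linker histone known to respond to drought in Arabidopsis, had 7.34 from 6 and 6 reads. The RNA-binding gene AT1G22330 had 6.84 and the endonuclease gene AT3G48900 4.31.

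Cys/His-rich C1 domain proteins, whose role is little known, gave 4 genes. AT3G27480 had a control mean of 6.25, AT2G17590 6.03, AT2G37820 4.8 and AT5G02330 4.76. The relative and neighbour of AT5G02330, AT5G02350 (78.9% identity), had 18.85 and 1.16. AT3G27473 beside AT3G27480 and AT2G37800 beside AT2G37820 were listed at 0 after IAA as well, from 1.86 and 1.77 in control. AT3G27490, on the other side of AT3G27480 and its nearest relative (76.3% identity), kept reads, with 2.45 and 0.73. Of 74 other C1 genes past the filter, 27 (36.5%) had a ratio of 0.5 or less and 12 (16.2%) a ratio of 2 or more. Their median log2 ratio was -0.54. This list was also made after the 91 genes had been read.

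The highest control mean of all belonged to a gene of the lipid-transfer family. AT4G22666 had 32.27 from 53 to 54 reads and was at least 25.3-fold lower after IAA. Only 2 of the 4857 nuclear genes above it in control were at 0 after IAA, and the rule left both out. AT2G44300 of the same family had 5.94, from 9 reads on 1 step and 1 on the other, while its neighbour and relative AT2G44290 (84.4% identity) was listed at 0 in control and at 2.55 after IAA. The 33 other lipid-transfer genes past the filter went both ways, with 13 (39.4%) at a ratio of 0.5 or less and 8 (24.2%) at 2 or more.

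GLIP2, a secreted GDSL lipase known for defence, had a control mean of 17.99 and was at least 14.1-fold lower after IAA. GLIP5, 3428 bp away, had 13.78 and 17.5. The other GDSL gene, AT3G62280, had 4.31. Of 25 further GDSL genes past the filter, 3 had a ratio of 0.5 or less and 10 a ratio of 2 or more. The share at 0.5 or less was close to the 12.7% over all nuclear genes. The share at 2 or more was above the 15.0% over all nuclear genes. The side of GLIP2 and AT3G62280 was set by the rule that chose them. Lower control means were found for the sterol-binding ORP1B (7.3), the fatty alcohol oxidase FAO3 (6.07), the prenyltransferase cPT4 (8.52), the AMP-dependent ligase AT1G75960 (4.4) and the acyltransferase AT1G64355 (4.31). ORP1A, 85.8% identical to ORP1B and beside it in the genome, had 60.18 and 18.58.

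Other enzymes were encoded by 10 genes, with control means from 4.4 to 13.69. The highest was the galactose mutarotase-like AT3G01260. AT1G22430, of the zinc-binding alcohol dehydrogenase family, had 9.61 and was at least 7.53-fold lower after IAA, and AT4G22110 (83.0% identity) had 10.97 and 1.16. UGT72B3, a glucosyltransferase, had 9.02, and GSTU28, a glutathione transferase, 8.02 with its relative GSTU25 (62.4% identity) at 0.59 and 5.66. PPa3, a soluble pyrophosphatase, had 6.25, whereas PPa1 (89.0% identity) kept nearly the same mean in both groups, 64.17 and 54.83. The alpha/beta hydrolase AT5G38520 had 6.07 and the acyltransferase AT2G25150 4.98.

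The 2OG and Fe(II) oxygenases AT5G51310 and AT3G46490 had control means of 5.57 each and AT3G61400 one of 4.4. AT3G46500, 561 bp from AT3G46490, had 5.57 and 3.17. Of 56 other genes of this list past the filter, 10 had a ratio of 0.5 or less and 3 a ratio of 2 or more. AT4G33720, of the pathogenesis-related CAP family, had 6.8 and AT5G63270, of the RIN4 family, 6.93.

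The remaining 19 genes, most of them with little or no named function, had control means from 4.17 to 14.0. ARFD1B, of the ADP-ribosylation factor family of GTPases, had 4.31. The BTB/POZ domain gene AT3G56230 had 14.0 from 13 and 10 reads, AT5G43230 10.51 from 6 and 11, AT5G10410 10.38 from 9 and 8, and AT2G34610 10.24 from 12 and 5. AT1G12150 had 9.47 and AT3G12540 9.24. AT1G52660 and AT3G15700, P-loop ATPase genes on different chromosomes with 80.6% identity, had 4.4 and 4.35, and each is the nearest relative of the other.

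The nearest relatives, whose values the rule did not use, were lower after IAA more often than higher. For 50 of the 91 genes the best protein match was at least 60% identical over at least 70% of the length, and 42 of these relatives were in the table. In 5 cases the relative was itself one of the 91. Of the 37 others, 27 had a larger mean of at least 4. Of these, 13 had a ratio of 0.5 or less, 2 a ratio of 2 or more and 12 lay between, with a median log2 ratio of -0.89. Over all nuclear genes without the 91, 12.7% had a ratio of 0.5 or less and 15.0% a ratio of 2 or more. AAE5 (69.74 and 58.71) and MSL4 were relatives with nearly equal means, and LHT1 and GSTU25 were the 2 with a ratio of 2 or more.

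**Figure D5:**
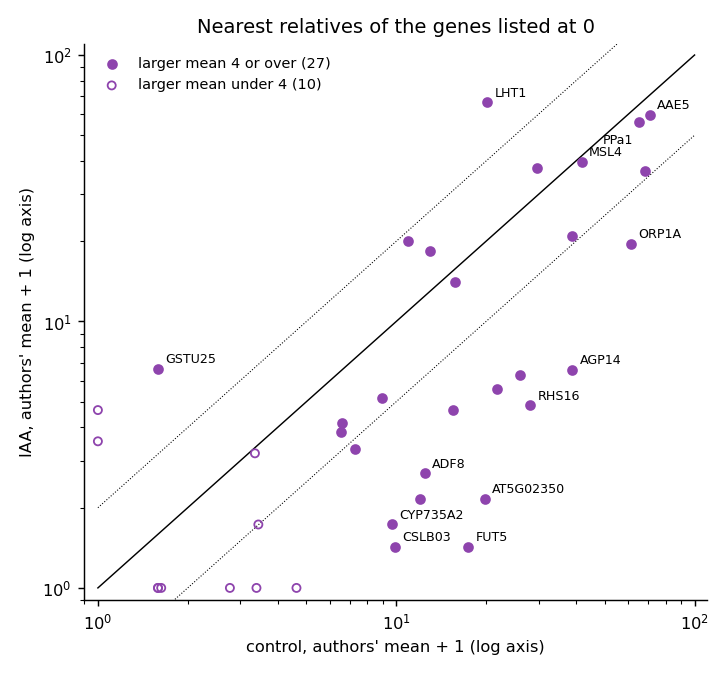
IAA mean against control mean (1 added to each, log axes) of 37 nearest relatives that are not among the 91 genes. Filled points have a larger mean of 4 or over (27), the solid line marks equal means and the dotted lines ratios of 0.5 and 2. Of the filled points, 13 lie on or below the lower dotted line and 2 above the upper one.

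Genes next to the 91 in the genome lay near the background. Of 134 neighbours past the filter, 23 (17.2%) had a ratio of 0.5 or less and 15 (11.2%) a ratio of 2 or more, against the 12.7% and 15.0% over all nuclear genes, with a median log2 ratio of -0.06. In 18 of the 91 cases the gene overlapped another gene model, and in 11 that model was in the table. ADF11, PHT4;1, NdhS and cPT4 are among these 11. Whether the counting used the strand is not given in the sources used here, so reads of overlapping genes could be assigned to either or to none.

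In structure the 91 genes were somewhat shorter than other coding genes with control means from 4 to 32.27. Level within this range was not matched. At a control mean of 4 to 5 lay 33 of the 91 and 973 nuclear genes in all, and at 20 to 40 lay 2 and 3108. Read means are not divided by gene length, and the part of level in the differences below was not tested. Their median exon number was 3 against 5 for 9641 others, the median transcript length 1447 against 1702 bases and the median protein length 358 against 389 residues. Genes with 1 exon made up 22.0% of the 91 (20 genes) and 13.7% of the others. Chromosome 1 held 28 of the genes, and chromosomes 2 to 5 held 16, 15, 18 and 14.

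Some short words were rarer in these promoters than in all promoters of the genome. TGGGCC, a site known from promoters of ribosomal protein and cell cycle genes, stood in 4.4% of the 91 against 15.3% of all. In other coding genes with control means from 4 to 32.27, not matched for level within that range, its share was 20.1%. TTGACC, the core of the W box, stood in 7.69% against 14.2%, and AAACCCTA in 2.2% against 6.64%. The auxin response words TGTCTC and TGTCGG stood in 12.1% and 6.59% against 14.4% and 5.24%. CATGCA stood in 13.2% against 9.59% and CACGTG, the G box, in 9.89% against 7.74%. TAATTA stood in 26.4% against 30.7%, TAATAT in 42.9% against 40.5% and ATGTAT in 29.7% against 25.6%. TATAAA stood in 53.8% against 52.0%, GNATATNC, the N standing for any base, in 7.69% against 6.19%, and GCCGCC in 2.2% against 2.67%. All words were searched on both strands and may overlap each other. For 5 of the words, the G box, TGTCGG and GCCGCC among them, the side of the difference from all promoters changed with the strand or window searched.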

How the data were processed

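Roots of control and IAA-treated seedlings were sequenced, with 3 libraries per group by the labels. According to the study's methods, the authors mapped reads to TAIR10 with SHRiMP, counted uniquely mapped reads per gene with HTSeq and compared the groups with DESeq. The deposited table holds, for each of 20423 genes (208 of them organellar), a mean number of normalized reads per group, a non-negative signal that the authors computed from counts divided by size factors, as DESeq does. Its other columns hold the authors' own fold changes and p-values, which were not used. There were 0 columns of single samples.

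The 91 genes, the gene lists and the comparisons were chosen with earlier results of these data known. The lists of root hair specific names, photosystem I symbols, C1 domain, 2OG oxygenase, cellulose synthase-like and pectin methylesterase inhibitor genes, the root hair element and the roles were chosen after the 91 genes had been read. Genes named in full are the 20 with the highest control mean, those of a list with at least 2 of the 91 and the 3 nearest the threshold, with the 3 highest genes below the threshold that were at 0 after IAA, listed relatives, neighbours of the same list and cell type markers. Values for other genes (CSLB01, ADF1 to ADF6, ADF9, CLE44, TIP genes, genes between close pairs and the single genes of each role) were added after their values were seen.

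With 1 mean per group no spread between libraries can be estimated, so no test was run. Ratios are (IAA mean + 1) / (control mean + 1), for genes with a larger mean of at least 4. Counts of other genes in a list and over all nuclear genes leave out the 91 but keep the 7 left-out IDs. The steps of 1 read were fitted on values up to 5 with a tolerance of 0.006 and checked on simulated counts. Bounds use a floor of 3 reads after IAA and take the control mean as exact. Gene models, symbols and sequences came from the TAIR10.1 assembly of RefSeq, which matched all but 23 nuclear IDs and all 91 genes. Relatives were found with BLASTP 2.17.0 (e-value 1e-05). Python 3.11.15, pandas 2.3.3, numpy 2.4.6, scipy 1.17.1 and matplotlib 3.10.9 were used. Depth can only be inferred from the steps, and precision is limited by counts of 7 to 54 reads per gene.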

Additional observations from a re-analysis of the deposited data

How the results depend on the processing

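No paired analysis was possible because the table holds 1 pooled mean per group, and for the same reason no replicate could be left out in turn. Of 226 comparisons of a value with its alternative, 192 stayed within the margin set and 33 moved past it. In 1 the sign changed, the lipid-transfer median log2 ratio going from 0.16 to -0.29 at a larger mean of at least 10. The number of genes depended on the threshold, with 154, 58 and 26 genes at a control mean of at least 3, 5 and 8, and the share at 0 was then 1.04%, 0.477% and 0.282%. With 1 read allowed after IAA at either step 186 genes met the rule, with 1 read at the smaller step only 136 and with the 7 IDs kept 98, and 73 of the 91 overlapped no other gene model. The first and last of these settings were chosen after seeing the data. In the other direction 182 and 36 genes were at 0 in control at an IAA mean of at least 3 and 8, and 221 with at least 7 reads, a setting also chosen after seeing the data. With a tolerance of 0.003, which is below the rounding of the means, 41 genes had 1 solution in reads.

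The photosystem list had a median log2 ratio of -2.1 with a pseudocount of 0.5, -1.36 without a filter and -2.18 at a larger mean of at least 10. With that last filter fewer genes were counted at a ratio of 0.5 or less for photosystem (28), photosystem I (6), pectin (15), C1 (14) and sugar and MtN21 transporter genes (25). Genes at 2 or more then numbered 69 for transcription factors, 7 for C1, 2 for arabinogalactan, 1 for 2OG and 0 for aquaporin genes. Without a filter 41 C1 genes lay at 0.5 or less and 5 2OG genes at 2 or more, and with a pseudocount of 2 there was 1 arabinogalactan gene at 2 or more. On the given strand alone the motif shares were 1.1% for TGTCGG, 37.4% for TATAAA, 22% for TAATAT, 15.4% for ATGTAT and 12.1% for GCACG. At a larger mean of at least 10, 57 kinases were at 0.5 or less and 63 at 2 or more, the larger count changing side, and pectin genes were even at 15 and 15. TGTCGG (1.1% against 2.44% of all promoters) and TAATAT (22.0% against 25.4%) lay below all promoters on the given strand and GCCGCC (2.2% against 1.37%) lay above them. TATAAA (46.2% against 47.3%) and CACGTG (6.59% against 6.63%) lay below them in the 250 bases before the start, where GCCGCC had 0 matches. The few reads per gene limit every 0 after IAA to the bounds given above.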
